A study of Arabidopsis thaliana with 18 samples.

Results

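In Arabidopsis thaliana seedlings, 48 probe sets were higher after nitrogen depletion in wild type and higher again when either LBD37 or LBD38 was overexpressed. They were picked from 22746 probe sets by their group means on the log2 scale. The mean of depleted wild type had to exceed that of nitrogen-fed wild type by at least 0.5, and the mean of each overexpresser had to exceed that of depleted wild type by at least 0.4. The first condition alone was met by 3114 probe sets, of which 3066 were not members. The overexpresser conditions alone were met by 698 further probe sets.

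The arrays were Affymetrix ATH1, which measures transcripts with sets of short probes, and 18 of them were run, covering 6 groups with 3 biological replicates apiece. Whole Col-0 seedlings were taken at 9 days of age. Wild type, the LBD37 overexpresser and the LBD38 overexpresser had 7 days of full nutrition and then 2 days with no nitrogen added. Wild type, the lbd37-1 T-DNA insertion mutant and the lbd38 T-DNA insertion mutant had 4 mM KNO3 for all 9 days. The labels give neither the promoter that drives the overexpressers nor the number of independent lines, so each genotype may stand for 1 line. Overexpressers were profiled only without nitrogen and mutants only with it, so gain and loss of a factor were not compared in the same medium. Probe sets for LBD37 and LBD38 themselves were not identified in the annotation used here, and the targeted genes therefore gave no check of the labels.

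Both factors belong to the LATERAL ORGAN BOUNDARIES DOMAIN family of plant transcription regulators. They are induced by nitrate and are known as repressors of anthocyanin synthesis and of many genes that respond to nitrogen limitation. Seedlings that run out of nitrogen switch on high-affinity nitrate uptake, nitrogen recycling and a broad set of stress genes. The 48 members are higher in both overexpressers by the rule that chose them. Among the other 3066 probe sets raised by depletion, 46.7% passed the threshold as lower in the LBD37 overexpresser and 1.17% as higher. The shares in the LBD38 overexpresser were 42.8% and 1.92%. Over all probe sets, 11.3% were lower and 7.21% higher for LBD37, and 8.66% and 9.26% for LBD38. The rule itself took probe sets higher in both overexpressers out of the 3066. Choice by the depletion difference also favours high depleted wild-type arrays, the baseline of both overexpresser differences, and so lower values. Nothing is read from these shares. The high-affinity nitrate transporter gene NRT2.5 stood 3.90 higher on the log2 scale after depletion and then lower by −2.90 and −3.26 in the overexpressers of LBD37 and LBD38.

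The annotation lists exactly 1 gene for 25 of the 48 probe sets, several for 1 (256008_s_at) and none for 22, which are given by probe set only. Of the 25 genes, 7 carry a symbol in RefSeq (TAIR10.1). STZ (AT1G27730), also called ZAT10, encodes a C2H2 zinc finger repressor induced by salt, cold and other stresses. CML38 (AT1G76650) and CML23 (AT1G66400) encode calmodulin-like calcium-binding proteins. PDF1.2 (AT5G44420) and PDF1.2b (AT2G26020) encode plant defensins, small antifungal peptides used as markers of jasmonate and ethylene signalling. ARPN (AT2G02850) encodes plantacyanin, a small blue copper protein, and TBL38 (AT1G29050) belongs to the TRICHOME BIREFRINGENCE-LIKE family, known for O-acetylation of cell wall polysaccharides. The other 18 have a locus identifier alone and no role is given for them here. AT3G15310, among these 18, is annotated as a pseudogene. The 25 genes lay on chromosomes 1 to 5 in numbers of 8, 5, 4, 1 and 7, and no 2 of them lay within 10 kb of each other. The suffix of 4 probe sets, PDF1.2b among them, marks probes that can match more than 1 transcript, so their signal may be shared between related genes.

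The median log2 signal per array ranged from 6.87 to 7.06. Replicate 3 of the LBD37 overexpresser differed from the rest, since its median was lowest and its interquartile range was 2.89 where the other arrays had 3.06 to 3.28. Of 7 root and 8 leaf markers listed, 4 and 6 were measured, and both kinds were detected. The mean of the 6 leaf markers was 9.89 to 9.97 in nitrogen-fed wild type, 9.09 to 9.33 in depleted wild type, 9.45 to 9.70 in the LBD37 overexpresser and 9.68 to 9.74 in the LBD38 overexpresser. SPCH changed most, by −1.41 with depletion and by 1.35 and 1.46 in the LBD37 and LBD38 overexpressers. With depletion 5 of the 6 were called lower, while FMA was higher by 0.24. RCA (−0.15) and LHCB4.2 (−0.01) did not rise in the LBD37 overexpresser. The 4 root markers averaged 8.79 to 9.59 over all arrays, but single ones changed in opposite directions. With depletion AT4G26010, EXPA18 and EXPA7 rose by 0.94, 0.74 and 0.51 on the log2 scale and PYK10 changed by −1.27, and EXPA7 and EXPA18 were lower in the LBD37 overexpresser by −0.62 and −0.48. Root and leaf markers thus both moved with the groups, and their part in the members' values was not tested. In whole seedlings, fewer cells of a type and less RNA per cell cannot be told apart.

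The median level of the 48 members was 6.89 in nitrogen-fed wild type, 8.02 in depleted wild type, 8.96 in the LBD37 overexpresser and 8.79 in the LBD38 overexpresser. In the mutants, which had nitrate, it was 7.18 for lbd37 and 7.27 for lbd38. The median difference was 0.81 for depletion (range 0.50 to 3.04), 0.65 for LBD37 overexpression (0.42 to 3.20) and 0.69 for LBD38 overexpression (0.43 to 1.69). Medians over all 22746 probe sets were −0.07, 0.01 and 0.01. These differences chose the members and are given as a description.

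**Figure D1:**
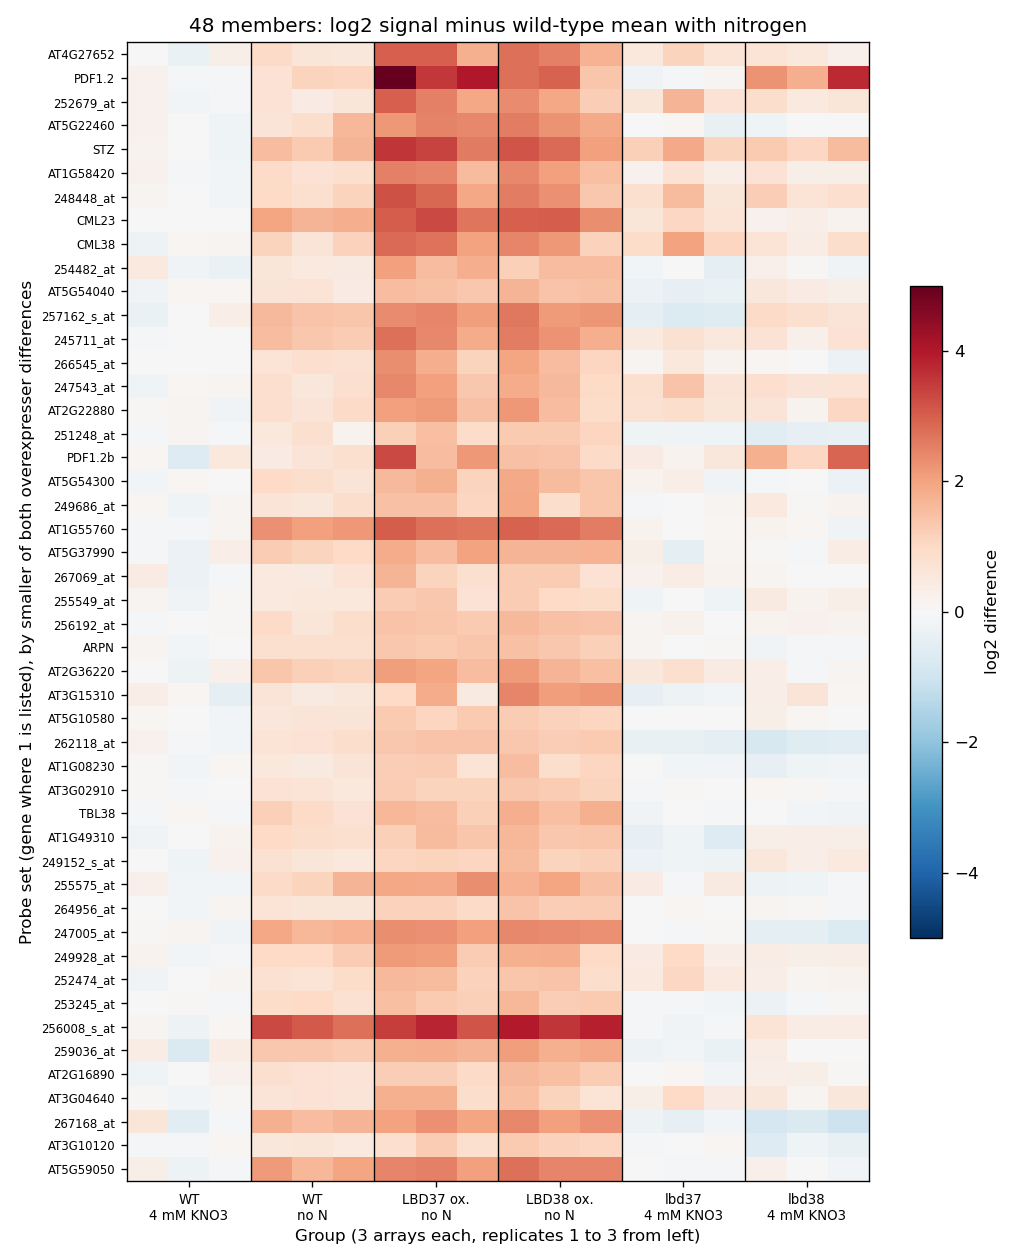
Log2 signal of the 48 members (vertical axis, 1 probe set each) on the 18 arrays (horizontal axis, 3 per group), as the difference from the mean of nitrogen-fed wild type. Colour deepens from wild type with nitrate to depleted wild type to both overexpressers, while the 2 mutant groups stay mostly pale, with STZ and the defensin PDF1.2 among the exceptions.

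In the limma fit, 44 of the 48 members had an adjusted p under 0.05 for depletion, where 23.5% of all probe sets were called higher. The count was 43 in the LBD37 overexpresser, where 7.21% of all probe sets were called higher, and 41 in the LBD38 overexpresser, where it was 9.26%. Since the rule used these contrasts, nothing is read from the counts. The LBD37 background itself depended on scaling and on replicate 3 of the LBD37 overexpresser. Of all called probe sets, 39% were higher as deposited, 49.8% after quantile normalization and 50.5% after centring of the arrays. With that replicate left out and no rescaling, 50.9% were higher. The 4 members short of the threshold for depletion were PDF1.2, PDF1.2b, 252679_at and AT3G15310.

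Members did not all have the same profile. In 24 of them (50%) the depletion difference was larger than either overexpresser difference, against 37.6% of all probe sets and 99.8% of other depletion-raised ones. In 15 (31.2%) both overexpresser differences were larger than the depletion difference, against 54.3% and 0%. Both kinds of difference share the depleted wild-type arrays. The rule also set unequal limits on them, so nothing is read from these counts. The largest depletion differences were those of 256008_s_at (3.04), AT1G55760 (2.18) and AT5G59050 (1.91), and the smallest that entered were those of 254482_at, 255549_at and 251248_at (0.501, 0.506 and 0.509). Just outside were AT1G21010, IQD22 and AT4G39190, at 0.490, 0.480 and 0.459. On the LBD37 condition the nearest inside were AT5G59050, AT3G10120 and 267168_at (0.417, 0.417 and 0.418) and the nearest outside 249684_s_at, AT5G67350 and 252316_at (0.399, 0.379 and 0.363). On the LBD38 condition AT3G04640, 249928_at and 252474_at lay nearest inside (0.431, 0.438 and 0.441) and 264525_at, 261470_at and AT4G24110 nearest outside (0.388, 0.364 and 0.355). Membership was sensitive to single arrays, since 28 of the 48 stayed with each of the 12 arrays that define it left out in turn.

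The stress regulator STZ is described first. Its log2 signal was 7.65, 7.46 and 7.26 in nitrogen-fed wild type and 9.02, 8.76 and 9.15 in depleted wild type. The LBD37 overexpresser arrays read 11.05, 10.83 and 10.06, and those of the LBD38 overexpresser 10.61, 10.31 and 9.53. Every array of a group lay above every array of the preceding step, and replicate 3 was the lowest in both overexpressers. Such separation at every step held in 36 of the 48 members (75%), against 0.791% of all probe sets. The rule chose members on these same groups, so nothing is read from it. For STZ the differences were 1.52 for depletion, 1.68 for LBD37 and 1.17 for LBD38.

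CML38 started lower, at 5.03, 5.35 and 5.42 in nitrogen-fed wild type and 6.37, 5.90 and 6.41 in depleted wild type. It read 8.10, 7.99 and 7.29 in the LBD37 overexpresser and 7.71, 7.43 and 6.41 in the LBD38 overexpresser. At 2 decimals, replicate 3 of the LBD38 overexpresser was level with the highest depleted wild-type array. CML23 had the steadier profile of the pair, with 5.89, 5.92 and 5.88 in nitrogen-fed wild type and 7.89, 7.58 and 7.70 after depletion. Its overexpresser values were 8.91, 9.22 and 8.59 for LBD37 and 8.88, 8.91 and 8.22 for LBD38, all above depleted wild type. Its depletion difference, 1.83, exceeded the overexpresser differences of 1.18 and 0.95.

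PDF1.2 was near the bottom of the scale in nitrogen-fed wild type, at 4.61, 4.30 and 4.33, and read 5.13, 5.53 and 5.50 after depletion. It reached 9.41, 7.94 and 8.41 in the LBD37 overexpresser and 7.15, 7.34 and 5.79 in the LBD38 overexpresser. The LBD37 difference of 3.20, or 9.17-fold, was the largest of any member in either overexpresser, and the LBD38 difference was 1.37. The wild-type mean with nitrate fell under the lower quartile of every array, so folds against it are rough. PDF1.2b lay higher and overlapped more, at 7.69, 6.94 and 8.11 with nitrate and 7.98, 8.23 and 8.38 after depletion. Its values were 10.87, 9.12 and 9.75 in the LBD37 overexpresser and 9.04, 9.02 and 8.52 in the LBD38 overexpresser. The fed and depleted wild types overlapped for PDF1.2b, while all overexpresser arrays lay above depleted wild type.

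ARPN had small differences with little spread. It read 9.69, 9.42 and 9.58 with nitrate, 10.35, 10.35 and 10.36 after depletion, 10.91, 10.87 and 10.93 in the LBD37 overexpresser and 11.03, 10.92 and 10.75 in the LBD38 overexpresser. No group overlapped the preceding one, and both overexpresser differences were 0.55. TBL38 read 7.67, 7.80 and 7.68, then 8.90, 8.67 and 8.46, then 9.39, 9.28 and 8.90 for LBD37 and 9.52, 9.23 and 9.49 for LBD38. Replicate 3 of the LBD37 overexpresser tied with the highest depleted wild-type array at 2 decimals.

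Among genes with a locus identifier alone, AT4G27652 had the largest value for the smaller of its overexpresser differences, 1.61. It read 6.89, 6.54 and 7.15 with nitrate and 7.83, 7.48 and 7.43 after depletion. It reached 9.84, 9.85 and 8.63 in the LBD37 overexpresser and 9.60, 9.39 and 8.58 in the LBD38 overexpresser, with replicate 3 again the lowest in both. AT5G22460 had 6.71, 6.95 and 7.72 in depleted wild type, then 8.24, 8.55 and 8.47 for LBD37 and 8.63, 8.31 and 7.97 for LBD38. AT1G58420 had 6.74, 6.50 and 6.57, then 8.30, 8.22 and 7.38, and 8.19, 7.82 and 7.27. In both genes the overexpresser arrays lay above all depleted wild-type arrays. For AT2G22880 the values were 6.76, 6.54 and 6.85, then 7.97, 8.05 and 7.39, and 8.07, 7.44 and 6.82, so that its lowest LBD38 array overlapped wild type. AT5G54040 (0.87 for LBD37 and 0.93 for LBD38), AT5G54300 (0.66 and 0.77) and AT1G55760 (0.64 and 0.61) completed the 12 genes with the largest smaller difference.

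Of the probe sets without exactly 1 listed gene, 252679_at, 248448_at, 254482_at, 257162_s_at and 245711_at ranked first. They were higher by 1.91, 1.69, 1.3, 0.83 and 0.94 in the LBD37 overexpresser and by 1.26, 1.09, 0.93, 0.85 and 0.81 in the LBD38 overexpresser. No gene or role is attached to them here.

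**Figure D2:**
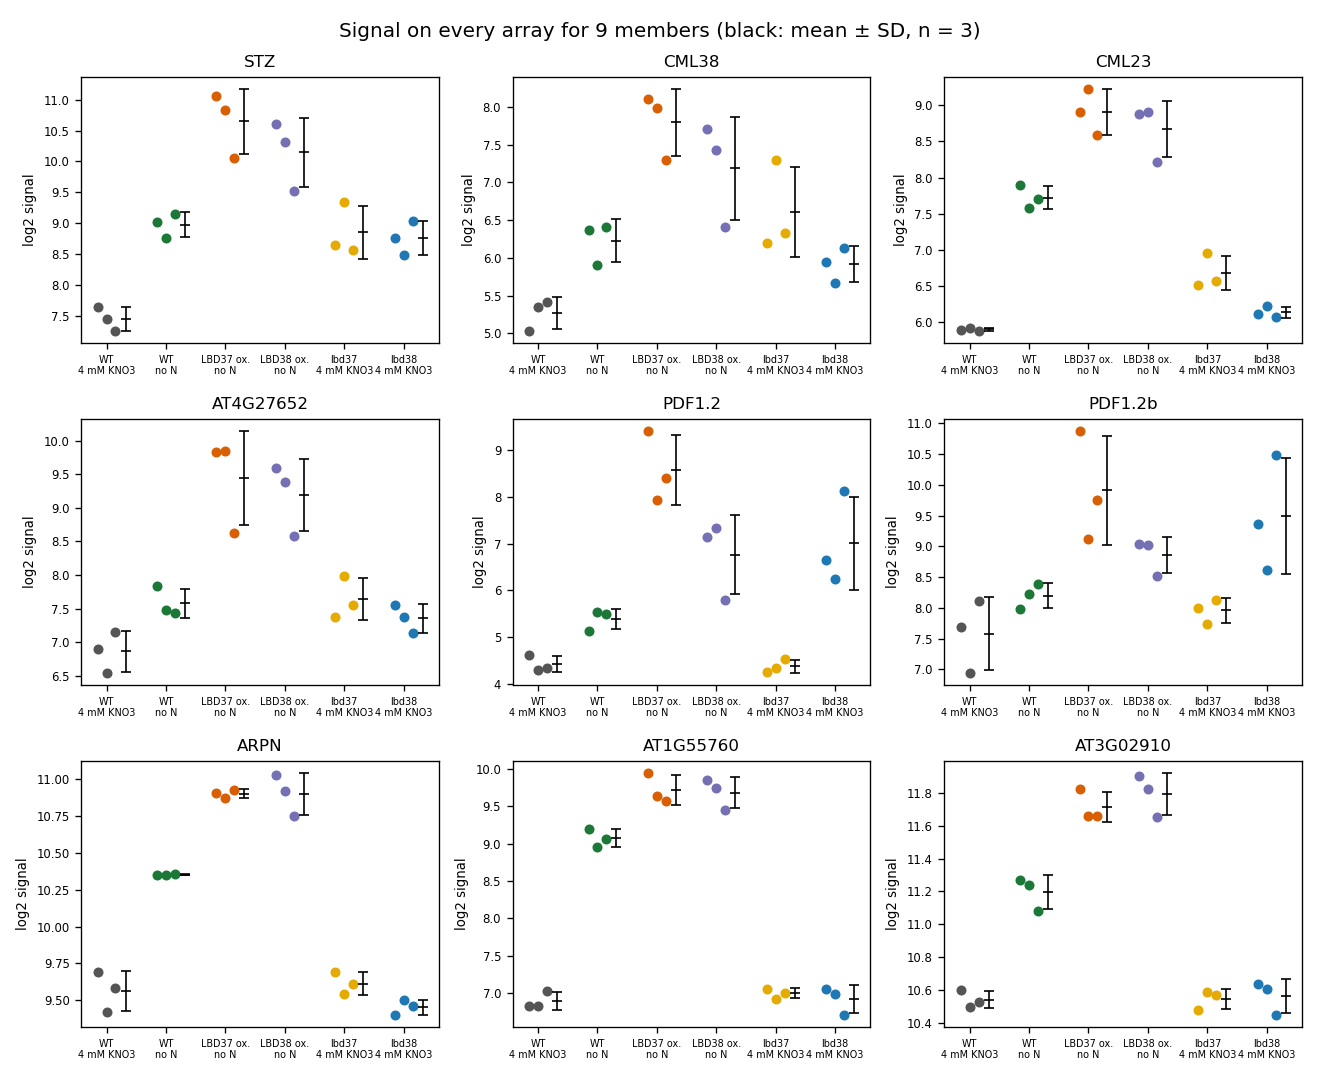
Log2 signal (vertical axis) on every array for 9 members, by group (horizontal axis), with black marks for the mean and SD of 3 replicates. STZ and PDF1.2 step upward from fed wild type to depleted wild type to the overexpressers, and PDF1.2 is high in lbd38 (mean 7.01) but not in lbd37 (mean 4.37).

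Replicates of every group spread more over the members than over probe sets in general. The median SD of the members was 0.26 in the LBD37 overexpresser and 0.25 in the LBD38 overexpresser, against 0.15 and 0.09 over all probe sets. In wild type it was 0.18 with nitrate and 0.14 without, against 0.11 and 0.09. In lbd37 and lbd38 it was 0.14 and 0.16, against 0.08 and 0.09. Replicate 3 was the lowest array of the LBD37 overexpresser in 37 of the 48 members (77.1%, against 52.3% of all probe sets) and of the LBD38 overexpresser in 32 (66.7% against 33.7%). Replicate 2 of lbd37 was the highest of its group in 30 members (62.5% against 41.5%). All 3 features held in 21 members (43.8% against 9.41%), among them STZ, CML38, AT4G27652, AT1G58420 and AT2G22880. This order was noticed in the values and was not tested. Without replicate 3 of the LBD37 overexpresser the rule gave 57 probe sets, and without replicate 3 of the LBD38 overexpresser 56, with all 48 members kept in both cases.

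**Figure D3:**
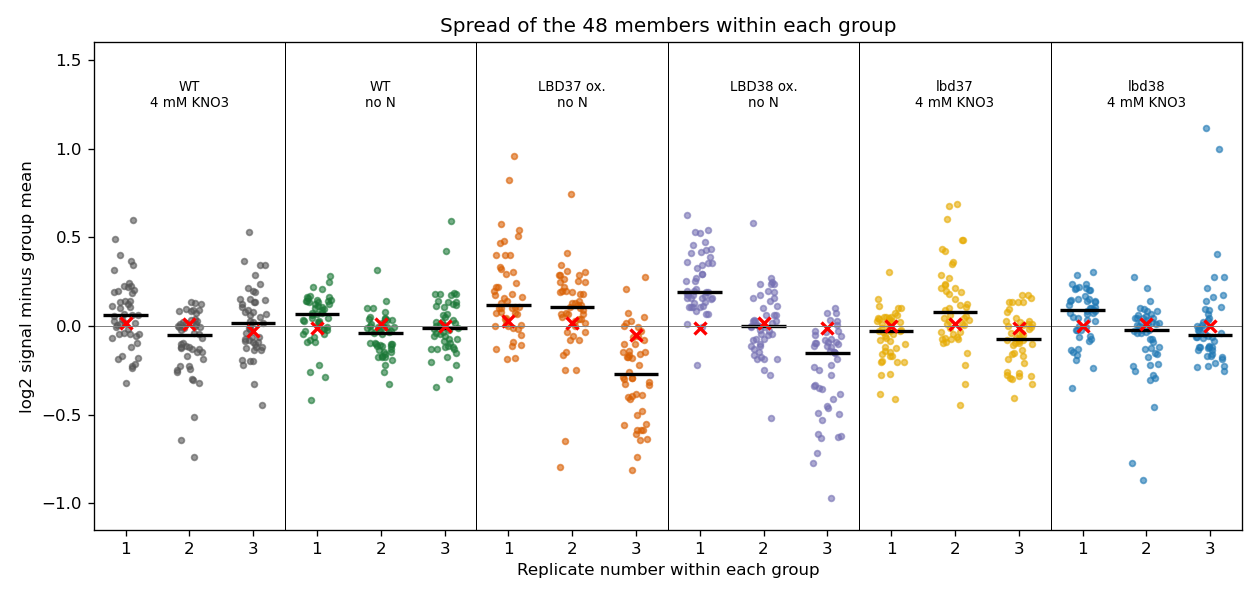
Log2 signal minus the group mean (vertical axis) for the 48 members on each of the 18 arrays (horizontal axis, replicates 1 to 3 within each group), with black lines for the members' median and red crosses for the median of all probe sets. Replicate 3 of both overexpressers lies low for most members, with median deviations of −0.27 for LBD37 and −0.15 for LBD38.

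Whether loss of either factor moved the members was asked in seedlings with nitrate. The mutants were not used by the rule, but their comparisons share the nitrogen-fed wild-type arrays with the depletion difference, which favours probe sets low on those arrays. Shares among the 3066 other probe sets, chosen for a depletion difference on the same arrays, are therefore given beside those over all probe sets. Most members did not pass the threshold in either mutant. In both mutants, 10 members (20.8%) lay at least 0.4 above fed wild type, against 2.41% of other depletion-raised probe sets and 0.435% of all. Higher values without overlap in both mutants were seen in 11 members (22.9%, against 4.99% and 1.27%). STZ, CML38 and CML23 were among these 11. All of the 10 and all of the 11 lay among the 21 members that shared the array order described above. Both mutant differences subtract the same fed wild-type arrays, so the mutants do not count as independent of each other here. Lower values without overlap in both were seen in 2 members (4.17%, against 2.02% and 2.48%). These shares were not tested.

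STZ rose in lbd37. Its values were 8.65, 9.34 and 8.57, all above the 3 fed wild-type arrays, a difference of 1.40 ± 0.27 (log2, estimate ± SE) or 2.63-fold (limma adjusted p = 0.0381). Of the 48 members, 1 was called higher in lbd37 and 0 lower in the limma fit, while 0.136% of all probe sets were called higher and 0.0528% lower. Among the other depletion-raised probe sets the shares were 0.457% and 0.0978%. An unadjusted p under 0.05 was found for 18 members (37.5%), 14.1% of the other depletion-raised probe sets and 7.42% of all. The call was lost when any 1 of the 6 arrays was left out (limma adjusted p = 0.0735 to 0.2). CML38 read 6.19, 7.29 and 6.33, a difference of 1.34 ± 0.30 (limma adjusted p = 0.111). CML23 read 6.51, 6.95 and 6.57, a difference of 0.78 ± 0.17 (limma adjusted p = 0.0773). Both genes lay above fed wild type on every lbd37 array without passing the threshold. AT4G27652 (0.78 ± 0.29, limma adjusted p = 0.543) did so too. No overlap with higher values was seen in 15 members (31.2%), against 12.3% of the other depletion-raised probe sets and 5.64% of all. With lower values it was seen in 6 members (12.5%), against 8.41% and 8.31%. The median difference was 0.02 for the 48 members, 0.02 for the other depletion-raised probe sets and −0.02 over all.

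In lbd38, 4 members rose and 3 fell. PDF1.2 read 6.66, 6.24 and 8.13, all far above the fed wild-type arrays, a difference of 2.60 ± 0.42 or 6.04-fold (limma adjusted p = 0.00356). Its defensin relative PDF1.2b read 9.36, 8.62 and 10.49, a difference of 1.91 ± 0.41 (limma adjusted p = 0.0243). STZ read 8.76, 8.49 and 9.04, a difference of 1.3 ± 0.27 or 2.47-fold (limma adjusted p = 0.0182). For each of these genes the lbd38 arrays did not overlap fed wild type. The unannotated 257162_s_at read 7.72, 7.57 and 7.41, higher by 0.80 ± 0.15 (limma adjusted p = 0.0112). The members that fell have no listed gene. They were 262118_at (−0.66 ± 0.09, limma adjusted p = 0.000865), 247005_at (−0.55 ± 0.10, adjusted p = 0.00805) and 267168_at (−0.87 ± 0.19, adjusted p = 0.0245).

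The calls in lbd38 can be read against 0.589% of all probe sets called higher and 0.598% called lower, or 2.54% and 1.17% of the other depletion-raised ones. Of all called probe sets, 49.6% were higher as deposited, 58.9% after quantile normalization and 61.1% after centring. An unadjusted limma p under 0.05 was found for 21 members (43.8%), 22% of the other depletion-raised probe sets and 11.7% of all. Higher values without overlap were seen in 20 members (41.7%), against 19.8% of the other depletion-raised probe sets and 6.32% of all. Lower values without overlap were seen in 6 members (12.5%), against 9.39% and 12.2%. The median difference was 0.20 for the members, 0.05 for the other depletion-raised probe sets and −0.04 over all. PDF1.2 passed in all settings in which it was measured, and 262118_at in all 13. STZ missed the threshold without replicate 2 or 3 of fed wild type or replicate 1 or 3 of lbd38 (limma adjusted p = 0.0658, 0.0679, 0.0758 and 0.116). PDF1.2b missed it without replicate 1 or 2 of fed wild type or replicate 1 or 3 of lbd38 (limma adjusted p = 0.0848, 0.132, 0.0793 and 0.148). It also missed with only the compared groups fitted, with a trended robust eBayes and with array weights (0.0614, 0.0873 and 0.0517), and passed in 6 of 13 alternatives. For 257162_s_at it was missed without replicate 1 of fed wild type or of lbd38 (0.0754 and 0.0751), for 247005_at without replicate 3 of lbd38 (0.0605), and for 267168_at without replicate 1 of fed wild type or replicate 1 or 3 of lbd38 (0.0939, 0.085 and 0.141), all limma adjusted p. With only the compared groups fitted, 267168_at missed it too (limma adjusted p = 0.107). Called members numbered 4 without replicate 1 of fed wild type and 3 without replicate 1 or without replicate 3 of lbd38.

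**Figure D4:**
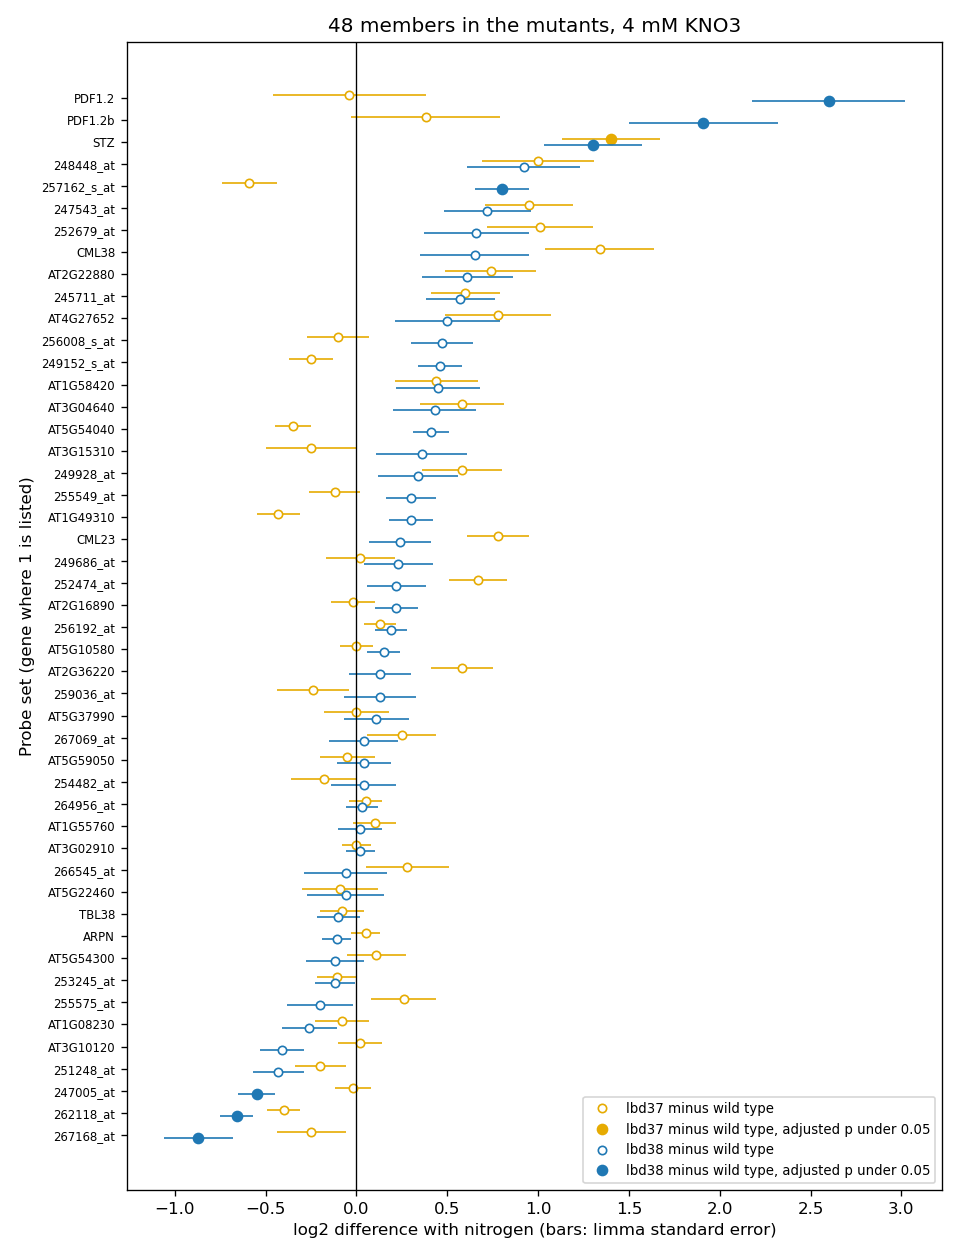
Log2 difference from fed wild type (horizontal axis, bars are limma standard errors) of each of the 48 members (vertical axis) in lbd37 and lbd38, with filled symbols for an adjusted p under 0.05. PDF1.2 at 2.60 in lbd38 lies farthest from 0, while most members of both mutants lie close to it.

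The mutants were also compared with each other, a contrast that uses no array of the rule. PDF1.2 was lower in lbd37 (4.25, 4.34 and 4.53) than in lbd38, by −2.64 ± 0.42 on the log2 scale (limma adjusted p = 0.0016). Its lbd37 mean of 4.37 was under the lower quartile of every array, so the size of this difference is rough. AT5G54040 read 6.78, 6.67 and 6.74 in lbd37 and 7.64, 7.49 and 7.36 in lbd38, a difference of −0.76 ± 0.10 (limma adjusted p = 0.000333). AT1G49310 read 6.83, 7.02 and 6.61 against 7.53, 7.59 and 7.54, a difference of −0.73 ± 0.12 (limma adjusted p = 0.00198). None of these genes had overlapping arrays between the mutants. The probe sets 257162_s_at (−1.39 ± 0.15, limma adjusted p = 5.21e-05) and 249152_s_at (−0.71 ± 0.12, adjusted p = 0.00216) were lower in lbd37 too, and 247005_at was higher (0.53 ± 0.10, adjusted p = 0.00577). In all, 1 member (2.08%) was called higher and 5 (10.4%) lower in lbd37, where 1.5% and 1.1% of all probe sets were. Among the other depletion-raised probe sets the shares were 2.9% and 3.29%. PDF1.2b pointed the same way as PDF1.2 (−1.53 ± 0.41) without passing (limma adjusted p = 0.0526). STZ differed by 0.09 ± 0.27 between the mutants (limma adjusted p = 0.96).

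Between the overexpressers, 0 of the 48 members passed the threshold in the limma fit, and 0.00879% and 0.0396% of all probe sets were called higher and lower in LBD37. An unadjusted p under 0.05 was found for 6 members (12.5%) and for 13.9% of all probe sets. The rule asked that both be above wild type and set no direction between them. PDF1.2 had the widest gap, 1.82 ± 0.42 higher in the LBD37 overexpresser with no overlap (limma adjusted p = 0.227). Without replicate 2 of the LBD37 overexpresser that difference was 2.15 and passed (adjusted p = 0.0224), and AT3G15310 passed as well (−1.51, adjusted p = 0.00111). Over the 12 alternatives in which PDF1.2 was measured its difference passed in 1, and with an array left out it ranged from 1.34 to 2.15. On all arrays AT3G15310 went the other way by −1.14 ± 0.25 (limma adjusted p = 0.227), from 5.64, 6.49 and 5.11 in the LBD37 overexpresser and 7.08, 6.74 and 6.83 in the LBD38 overexpresser.

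Other listed genes of stress and hormone pathways were read beside the members. Over all probe sets, 23.5% were called higher for depletion. In the LBD37 overexpresser 7.21% were called higher and 11.3% lower, and in the LBD38 overexpresser 9.26% and 8.66%. Of 39 listed genes of rapid stress and calcium signalling, 8 were measured, 2 of them members. Of the 6 others, 3 rose with depletion, none was higher in either overexpresser, 1 was lower in the LBD37 overexpresser and 2 in the LBD38 overexpresser. Over all probe sets, 0.589% were called higher in lbd38 and 0.136% in lbd37. Among the other probe sets raised by depletion the shares were 2.54% and 0.457%. Of the 6 genes, 1 was called higher in lbd38, and none was called in lbd37. That gene, CML40, was higher in lbd38 by 1.15 ± 0.23 (limma adjusted p = 0.0148) and rose by 2.27 ± 0.23 with depletion. The calmodulin-like gene CML37 rose by 1.45 ± 0.17 with depletion (limma adjusted p = 1.27e-06) and was lower by −0.94 ± 0.17 in the LBD38 overexpresser (adjusted p = 0.000825). PUB24, which encodes a U-box ubiquitin ligase, rose by 1.1 with depletion and fell by 0.65 and 0.77 in the LBD37 and LBD38 overexpressers.

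Of 34 listed jasmonate genes, 5 were measured, the 2 defensins among them. OPCL1, whose ligase product acts in jasmonate synthesis, rose by 0.99 with depletion (limma adjusted p = 1.14e-06) and was lower by −0.68 and −0.53 in the overexpressers (adjusted p = 0.000507 and 0.00361). The methyltransferase gene JMT rose by 0.49 ± 0.10 in the LBD38 overexpresser (limma adjusted p = 0.00227), and the thionin gene THI2.1 passed in none of these contrasts. SAG101, a regulator of salicylate defence and senescence, rose by 1.55 with depletion and was lower by −0.69 and −0.70 in the overexpressers. All 4 measured genes of detoxification, of 22 listed, rose with depletion, where 23.5% of all probe sets were called higher. Of the 4, 2 were lower in both overexpressers, the glutathione transferase gene GSTU25 and the alternative NADH dehydrogenase gene NDB2. Another of the 4, UGT73B4, was lower in lbd38 by −0.55 ± 0.12 (limma adjusted p = 0.0308). These lists were thinly measured, so their counts cover few of the listed genes.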

How the data were processed

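RNA from whole seedlings was hybridised to 18 single-colour ATH1 arrays. The authors deposited log2 signals for each probe set, made by RMA per the submitters' processing notes, which record no version of it. RMA shares normalization across arrays, and raw images were not used here. Arrays carry no read depth, and 3 arrays per group limit precision. The labels describe both liquid culture throughout and agar followed by liquid wells. Replicates are called biological, but the repeated unit is unstated, and p-values cover only the spread among these samples.

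Left out were 64 control probe sets. limma 3.58.1 in R 4.3.3 (lmFit, eBayes) was fitted to all 18 arrays with 6 group means. P-values were two-sided and Benjamini-Hochberg adjusted over 22746 probe sets within each of 7 comparisons, with a threshold of 0.05. The method was run on simulated data with independent noise for every array and probe set, so shifts of a whole array were not covered. The members, gene lists and tests were chosen with earlier results of these data known. Names came from the platform table (13513 probe sets with 1 gene, 503 with several, 8730 with none) and RefSeq symbols of TAIR10.1.

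Genes named were the 12 single-gene members with the largest smaller overexpresser difference, members called without overlap in a mutant or line comparison, members on a gene list or with a symbol, 5 probe sets without exactly 1 gene, those nearest the thresholds, and up to 4 other genes per list. AT3G15310, 256008_s_at and AT5G59050 as extremes, and the probe sets called in lbd38 or between mutants without a listed gene, were named after their values were seen. Of 12 gene lists, 9 had a measured gene. Replicate numbers were not used to pair samples in the main fit. Correlations of same-numbered deviations ran from −0.204 to 0.256, which cannot settle whether same-numbered samples were handled together. Alternatives were quantile normalization or centring of the deposited values, a replicate block, a filter on the dimmest 40% of probe sets, a fit to the compared groups alone, a trended robust eBayes, array weights, leaving out each array, and other membership thresholds.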

Additional observations from a re-analysis of the deposited data

Results flagged for a closer look

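These 6 members were singled out because lbd37 and lbd38 differed from each other by a direct limma test, with values as lbd37 minus lbd38 on the log2 scale. PDF1.2 differed by −2.64 (adjusted p = 0.0016), 257162_s_at by −1.39 (adjusted p = 5.21e-05), AT5G54040 by −0.76 (adjusted p = 0.000333), AT1G49310 by −0.73 (adjusted p = 0.00198) and 249152_s_at by −0.71 (adjusted p = 0.00216). In the other direction, 247005_at differed by 0.53 (adjusted p = 0.00577). Each passed the threshold in every alternative in which it was measured, and PDF1.2 was left out by the filter on dim probe sets.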

How the results depend on the processing

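No single member's difference followed here changed sign in any alternative run. The count of members called in lbd37, 1 as reported, was 2 with a replicate block, 2 after quantile normalization, 2 after centring, 4 when only the compared groups were fitted, 0 with a trended robust eBayes, and 0 to 1 with an array left out. STZ was lost in each of those 6 fits, and the 1 call, without replicate 2 of fed wild type, was a different member that was lower (259036_at, −0.61, limma adjusted p = 0.0478). The second call under the block was CML23 (0.78, limma adjusted p = 0.0393). Under the block, members called were 7 in lbd38, 7 between the mutants (PDF1.2b added, −1.53, limma adjusted p = 0.0296) and 0 between the overexpressers. Leaving out an array gave 3 to 7 calls in lbd38, 6 to 8 between the mutants and 0 to 2 between the overexpressers. The count between the mutants, 6 as reported, was 12 when only those groups were fitted and 15 with array weights. In lbd37, 0.158% of all probe sets were called higher after quantile normalization and 0.176% after centring, against 0.136% as deposited. For the other lbd37 alternatives and these fits between the mutants, the share of all probe sets is not given. Nothing about the members is therefore read from those counts. Membership was 26 at thresholds of 0.6 and 0.5, 25 among probe sets with 1 listed gene, and 43 to 57 with an array left out. The cause of these shifts was not tested. Of the refitted values of single members, 240 stayed on their side of the threshold, 25 no longer passed and 5 newly passed. Signal near the bottom of the scale limits 249686_at, AT3G15310 and PDF1.2.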
